A study of Rattus norvegicus with 16 samples.

Results

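The 9 genes of transcription factors that set hepatocyte identity were followed in rat liver across adult life: Hnf4a, Foxa1, Foxa2, Foxa3, Cebpa, Cebpb, Onecut1, Nr5a2 and Prox1. They were taken by gene name, as the probes that the array assigns to these 9 genes of 35069 on it. This gave 11 probes of 41012, with 3 for Hnf4a and 1 for each other gene. All 11 lay well above background on all 16 arrays, so none was lost to the filter on dim probes. The samples were livers of male Lewis rats, an inbred strain, aged 3 months (n = 3), 9 months (n = 3), 12 months (n = 3), 18 months (n = 3) and 24 months (n = 4). No genetic or drug treatment is named for any group, food and water were free, and the hour at which the tissue was taken is not given. Each sample was hybridised to 1 one-colour array. The labels do not say that each sample came from a separate animal, so p-values measure only the spread between these samples.

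Hepatocyte identity rests on a small network of factors that bind one another's genes and, together, the genes of plasma proteins, lipoproteins, bile acid synthesis and glucose output. HNF4A is a nuclear receptor at the centre of that network. The FOXA proteins open chromatin at liver enhancers, the C/EBP proteins are leucine-zipper factors of metabolism, regeneration and the acute-phase response, and ONECUT1 (also HNF6), NR5A2 (also LRH-1) and the homeodomain protein PROX1 act with them in the developing and the adult liver.

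Values are the log2 of the array signal after subtracting the 75th percentile of that array, so 0 is the level of that percentile and 1 unit is a doubling. A level is a property of 1 probe, and probes were compared in level only to pick the 1 with the highest mean for a gene. A change was called where limma's moderated test, adjusted by Benjamini-Hochberg over all 21447 genes tested, gave a p below 0.05. The 75th percentile was 171 to 412 intensity units, 52.5% to 65.2% of an array's probes passed as well above background, and 0 spots were saturated. The 12-month array 2, 24-month array 4 and 24-month array 3 had the lowest mean correlation with the other arrays of their own age (0.962, 0.969 and 0.970). The arrays lay on 7 slides: all 3-month arrays and 9-month array 2 on slide 1, 9-month arrays 1 and 3 with 12-month array 2 on slide 2, and the 12-month arrays 3 and 4, the 18-month arrays and the 24-month arrays on slides that held 1 age each. The 3-month and 9-month arrays and 12-month array 2 were scanned on day 1, and the other 12-month and the 18-month arrays on day 2. The 24-month arrays were scanned on day 3, so their age and scan day cannot be told apart. Scan session, used below, is only the year in the scan date, and days 1 and 3 shared a year that day 2 did not. The days are numbered in the order of the samples, not by date. All 12 hepatocyte markers examined, Alb, Ttr and Apoa1 among them, lay above background on all 16 arrays.

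The 3 Hnf4a probes lie along 1 gene on chromosome 3 (rat genome RGSC v3.4, rn4, positions as the array files give them) and did not give the same result below, so they are placed first. A_44_P419188 lies at chr3:154464030-154464089, A_43_P12146 at chr3:154482699-154482758 and A_44_P791953 at chr3:154485054-154485113, all on the plus strand. The first and second have 2 reading frames free of stop codons over their 60 bases, and A_44_P791953, the most downstream, has 0 and is not printed. Their sequences are shown, with that of Nr5a2, because these are the probes behind the difference between Hnf4a probes and behind the 1 factor that fell. The capitals in the Nr5a2 sequence mark a stop codon at its end.
Hnf4a A_44_P419188: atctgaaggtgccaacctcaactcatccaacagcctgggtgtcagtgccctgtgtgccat
Hnf4a A_43_P12146: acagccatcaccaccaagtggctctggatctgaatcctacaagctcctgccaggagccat
Nr5a2 A_43_P12110: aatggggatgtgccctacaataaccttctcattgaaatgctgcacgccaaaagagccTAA
No pair of the 11 member probes shared a run longer than 9 bases (55 pairs compared). Whether a FOXA or C/EBP probe matches the transcript of a paralog was not examined. The remaining probes lie on chromosome 6 (Foxa1), chromosome 3 (Foxa2 and Cebpb), chromosome 1 (Foxa3 and Cebpa), chromosome 8 (Onecut1) and chromosome 13 (Nr5a2 and Prox1).

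The 9-month livers differed from those of 3 months in most of these factors. Against 3 months, 4 factors rose (Hnf4a, Foxa1, Foxa3 and Prox1) and 1 fell (Nr5a2), which is 5 of 9 where 5.14% of all genes tested were called (1.94% higher and 3.2% lower). The median change of the 9 factors was 0.64 log2, beside 0.04 over all genes. Arrays of the 2 ages did not overlap for any of the 9 factors, where 41.1% of all genes showed no overlap. In whole tissue, fewer cells of a type and less RNA per cell cannot be told apart, and this holds for every change given here.

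Foxa1, a pioneer factor of liver enhancers, read 0.11, 0.19 and 0.34 at 3 months and 1.20, 1.08 and 1.22 at 9 months. Its later arrays read 0.41, 0.45 and 0.59 at 12 months, -0.04, 0.31 and 0.68 at 18 months, and 0.45, 0.33, 0.08 and 0.36 at 24 months. The 9-month arrays were thus above every other array, and the other 4 ages overlapped one another in the order of their means. The rise from 3 to 9 months was 0.95 ± 0.16 (SE), 1.93-fold (limma, adjusted p = 0.00474). The fall from 9 to 12 months was -0.68 ± 0.16, 1.61-fold (adjusted p = 0.0278). Foxa1 did not pass between 24 and 3 months (0.09, 95% interval -0.24 to 0.42, adjusted p = 0.773).

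Foxa3, the FOXA paralog that arises latest in liver development, was high at 2 separate ages. It read 0.10, 0.13 and -0.33 at 3 months and 0.73, 0.82 and 0.85 at 9 months. It then read -0.15, 0.19 and -0.04 at 12 months, 0.04, 0.27 and -0.26 at 18 months, and 1.31, 1.21, 1.37 and 0.61 at 24 months. All 9-month and all 24-month arrays lay above all arrays of 3, 12 and 18 months, and those of 9 and 24 months overlapped each other.
The rise at 9 months was 0.84 ± 0.21, 1.78-fold (limma, adjusted p = 0.0317), and the fall to 12 months was -0.80 ± 0.21, 1.74-fold (adjusted p = 0.0377). Between 12 and 18 months the difference was 0.01 (95% interval -0.43 to 0.46). At 24 months Foxa3 was 1.16 ± 0.19 higher than at 3 months, 2.24-fold (adjusted p = 0.0015), and 1.11 ± 0.19 higher than at 18 months, 2.16-fold (adjusted p = 0.000881). The 24-month arrays lay on slides of their own and had a scan day of their own. With slide as a random block the adjusted p for Foxa3 was 0.107 against 3 months and 0.13 against 18 months.

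Foxa2, the FOXA protein tied to fasting metabolism, gave a different picture from its paralogs. Its arrays read 4.19, 4.32 and 4.35 at 3 months and 4.55, 4.60 and 4.65 at 9 months. They then spread widely, to 3.39, 4.56 and 3.73 at 12 months, 3.55, 3.76 and 4.80 at 18 months, and 4.45, 2.90, 3.1 and 3.18 at 24 months. The SD between arrays was 0.08 at 3 months and 0.05 at 9 months, and 0.60, 0.67 and 0.70 at the 3 later ages.
Foxa2 was the 1 factor of 9 that did not pass the test for any age difference (limma's F test, adjusted p = 0.119). Its difference between 24 and 3 months was -0.88 ± 0.37 (adjusted p = 0.147), and 24-month array 1 lay above all 3-month arrays while the other 24-month arrays lay below them. Without 24-month array 1 that difference was -1.23 with an adjusted p of 0.0245.

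**Figure D1:**
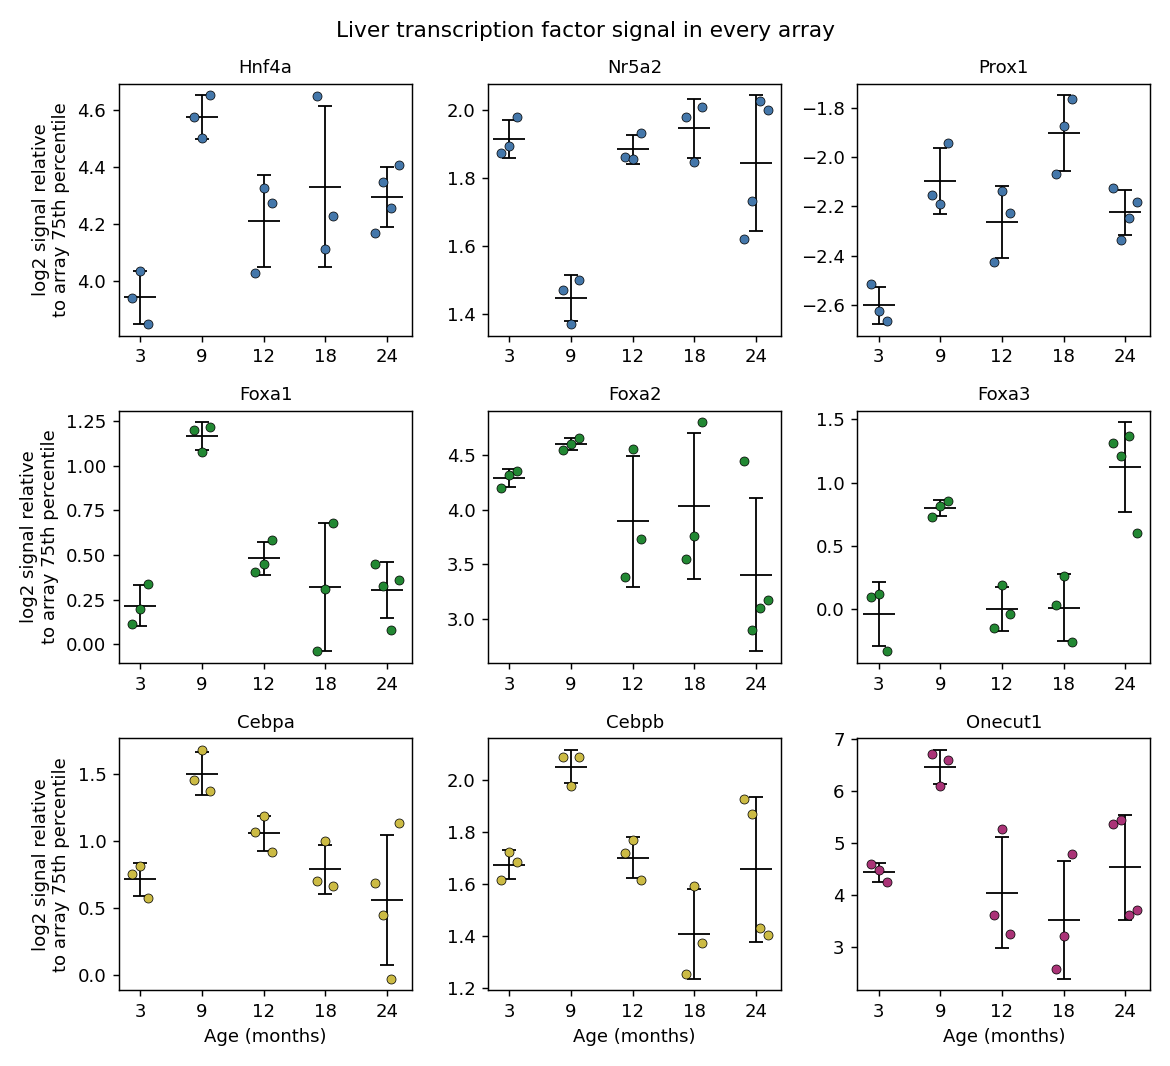
Signal of the 9 factors in every array, as log2 relative to the array's 75th percentile (vertical axis, a different span in each panel), against age in months. Points are arrays, long dashes the mean and bars 1 SD (n = 3, and 4 at 24 months). At 9 months Nr5a2 lies below all other ages, and Foxa1, Onecut1, Cebpa and Cebpb lie above all arrays of the other ages.

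Among the nuclear receptors, Hnf4a was read by its most downstream probe, the one with the highest mean. This probe read 3.94, 4.03 and 3.85 at 3 months, 4.57, 4.50 and 4.65 at 9 months, 4.03, 4.33 and 4.27 at 12 months, 4.65, 4.11 and 4.23 at 18 months, and 4.17, 4.35, 4.26 and 4.41 at 24 months. The 3-month arrays were lowest, overlapping 12-month array 2 alone, and the means of the other 4 ages followed one another with overlap. The rise from 3 to 9 months was 0.64 ± 0.15, 1.55-fold (limma, adjusted p = 0.0215). Between 24 and 3 months the arrays also stood apart, by 0.35 ± 0.14, and the test was not passed (adjusted p = 0.11).

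The other Hnf4a probes were not called at 9 against 3 months. A_44_P419188 read 0.34, 0.26 and 0.26 at 3 months and 0.74, 0.84 and 0.58 at 9 months, a difference of 0.43 ± 0.15 with no overlap and an adjusted p of 0.129 in a fit of every probe. A_43_P12146, which is printed in 10 spots on each array, read 0.10, 0.22 and 0.06 at 3 months and 0.15, 0.29 and 0.07 at 9 months. There the arrays overlapped and the difference was 0.05 (95% interval -0.35 to 0.44, adjusted p = 0.95).
The interval of A_43_P12146 holds the 0.43 of A_44_P419188, the most upstream probe, and not the 0.64 of A_44_P791953, the most downstream one. That 0.64 has an interval of its own, 0.32 to 0.95, which overlaps the interval of A_43_P12146. Whether the probes differ from one another was not tested. The SE over the 10 spots of A_43_P12146 within an array was 0.015 to 0.054, beside an SD between arrays of an age of 0.06 to 0.44. With the mean of the 3 probes as the gene's value, Hnf4a no longer passed for 9 against 3 months (0.37, adjusted p = 0.154). Of the 3 probes, 1 carried the Hnf4a call at 9 months.

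**Figure D2:**
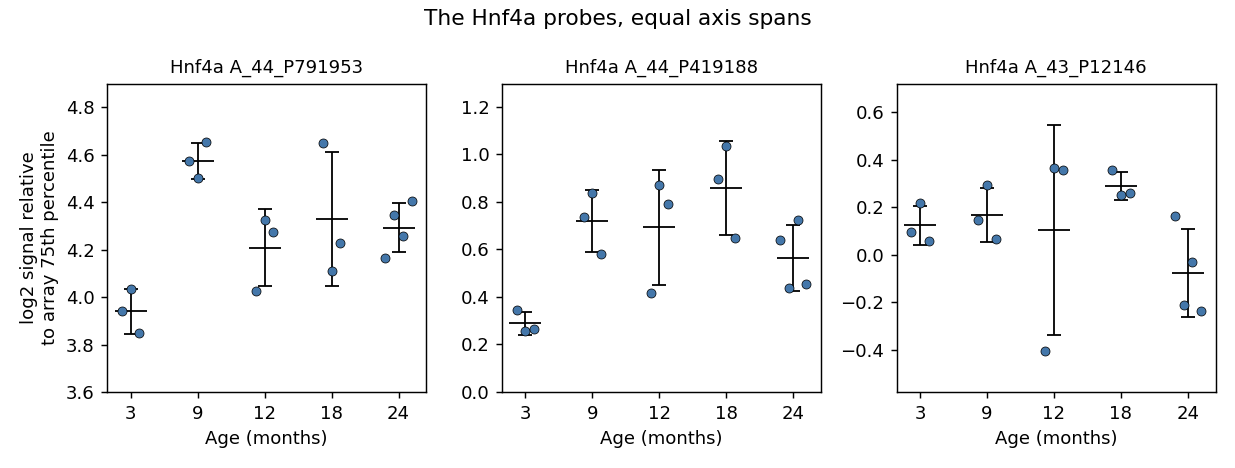
The 3 Hnf4a probes in every array, as log2 signal relative to the array's 75th percentile, with equal spans of the vertical axis. Points are arrays, long dashes the mean and bars 1 SD; the step from 3 to 9 months is 0.64 in A_44_P791953, 0.43 in A_44_P419188 and 0.05 in A_43_P12146.

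Nr5a2, a nuclear receptor that drives bile acid synthesis and cholesterol uptake genes, was the 1 factor that fell at 9 months. It read 1.87, 1.90 and 1.98 at 3 months, 1.47, 1.37 and 1.50 at 9 months, 1.86, 1.86 and 1.93 at 12 months, and 1.98, 1.85 and 2.01 at 18 months. At 24 months arrays 1 and 2 read 1.62 and 1.73 and arrays 3 and 4 read 2.03 and 2.0. The 9-month arrays were below all others, and the other 4 ages overlapped. The fall was -0.47 ± 0.12, 1.39-fold (limma, adjusted p = 0.0438), and the return at 12 months was 0.44 ± 0.12 (adjusted p = 0.0528), which did not pass.

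Prox1, a homeodomain factor of hepatoblasts that also marks lymphatic endothelium, was lowest at 3 months. It read -2.52, -2.63 and -2.67 at 3 months, -2.15, -2.19 and -1.94 at 9 months, -2.42, -2.14 and -2.23 at 12 months, -2.07, -1.87 and -1.76 at 18 months, and -2.12, -2.34, -2.25 and -2.18 at 24 months. All arrays of the 4 later ages lay above all 3-month arrays. The rise was 0.51 ± 0.13 by 9 months, 1.42-fold (limma, adjusted p = 0.0325), and 0.38 ± 0.12 by 24 months, 1.30-fold (adjusted p = 0.0484).
With normexp background correction the Prox1 differences were 0.22 (adjusted p = 1) and 0.47 (adjusted p = 0.412). The 24-month difference also lost its call without any 1 of the 3 arrays of 3 months or the 4 of 24 months (adjusted p = 0.0520 to 0.163). Of the lymphatic markers, Pdpn was above background on 0 arrays, and of the 3 tested 0 were called higher at 9 than at 3 months. Lyve1, which is on the endothelial list as well, changed by -1.10 (limma, adjusted p = 0.0165). Flt4 (0.13) and Ccl21 (-0.49) were not called. The part of lymphatic cells in the Prox1 differences was not tested.

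The C/EBP genes and Onecut1 stood apart at 9 months without passing against 3 months. Cebpa, which holds hepatocytes in a differentiated state, read 0.75, 0.81 and 0.58 at 3 months, 1.45, 1.68 and 1.37 at 9 months, 1.07, 1.18 and 0.92 at 12 months, 0.70, 1.0 and 0.67 at 18 months, and 0.69, 0.45, -0.03 and 1.14 at 24 months. The 9-month arrays lay above all others. The difference from 3 months was 0.79 ± 0.23, 1.73-fold (limma, adjusted p = 0.0631), and the F test over the 5 ages passed (adjusted p = 0.0231).

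Cebpb, a factor of the acute-phase response and of regeneration, read 1.62, 1.72 and 1.69 at 3 months, 2.09, 1.98 and 2.09 at 9 months, 1.72, 1.77 and 1.62 at 12 months, 1.26, 1.59 and 1.38 at 18 months, and 1.93, 1.87, 1.43 and 1.40 at 24 months. Its 9-month arrays were above all others. The difference from 3 months was 0.38 ± 0.15 (limma, adjusted p = 0.2), and the F test passed (adjusted p = 0.0432).

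Onecut1, a factor of hepatocyte and bile duct development, had the widest range of the 11 probes, 17.7-fold from lowest to highest array. It read 4.60, 4.47 and 4.24 at 3 months, 6.71, 6.09 and 6.60 at 9 months, 3.62, 5.26 and 3.25 at 12 months, 2.57, 3.20 and 4.78 at 18 months, and 5.37, 5.45, 3.61 and 3.71 at 24 months. Every 9-month array exceeded every other array. Onecut1 was 2.03 ± 0.64 higher at 9 than at 3 months, 4.09-fold (limma, adjusted p = 0.0898), and it fell by 2.43 ± 0.64 from 9 to 12 months, 5.37-fold (adjusted p = 0.0405). In a limma fit of the 3-month and 9-month arrays alone, in which every factor passed, the difference between 9 and 3 months had an adjusted p of 0.00125. For that step Onecut1 passed under 5 of 16 alternatives and in 0 of 6 fits without an array.

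The count of calls at 9 against 3 months changed with the arrays fitted. Without any 1 of the 6 arrays of these ages (3-month array 1, 2 or 3, or 9-month array 1, 2 or 3), Foxa1 alone of the 9 passed, while the differences of Hnf4a, Foxa3, Nr5a2 and Prox1 kept their direction with adjusted p of 0.0504 to 0.173. With the compared ages alone all 9 passed, and with normexp or with no filter 1 did. The share of all genes called in those fits is not given here, so these counts cannot be read as particular to the factors. Within slide 1, which held all 3-month arrays and 9-month array 2, 5 of 9 passed: Hnf4a, Foxa1, Cebpa and Onecut1 higher and Nr5a2 lower. That fit called 17.2% of all genes, and it has 1 array at 9 months, which is assumed to vary like the 3-month arrays.

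Other gene groups moved between 3 and 9 months as well. The mean level of the 12 hepatocyte markers was 7.60 to 7.74 in the 3-month and 7.89 to 7.92 in the 9-month arrays, with 0 of 12 called. The mean of 7 lymphocyte markers was -1.03 to -0.86 and then -2.65 to -2.12 (3 of 7 lower), that of 10 early response genes 2.83 to 2.94 and then 1.87 to 1.99 (4 lower), and that of 13 acute-phase genes 6.50 to 6.65 and then 5.70 to 5.84 (2 lower). Of 7 Kupffer cell markers 2 rose and 1 fell, and of 5 pancreatic markers tested 1 rose and 1 fell. The one that rose, Cpb1, was not well above background on any 3-month array and was at least 12.2-fold higher at 9 months, taking the dimmest probe above background on each 3-month array as its limit. The part of these groups in the changes of the factors was not tested.

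**Figure D3:**
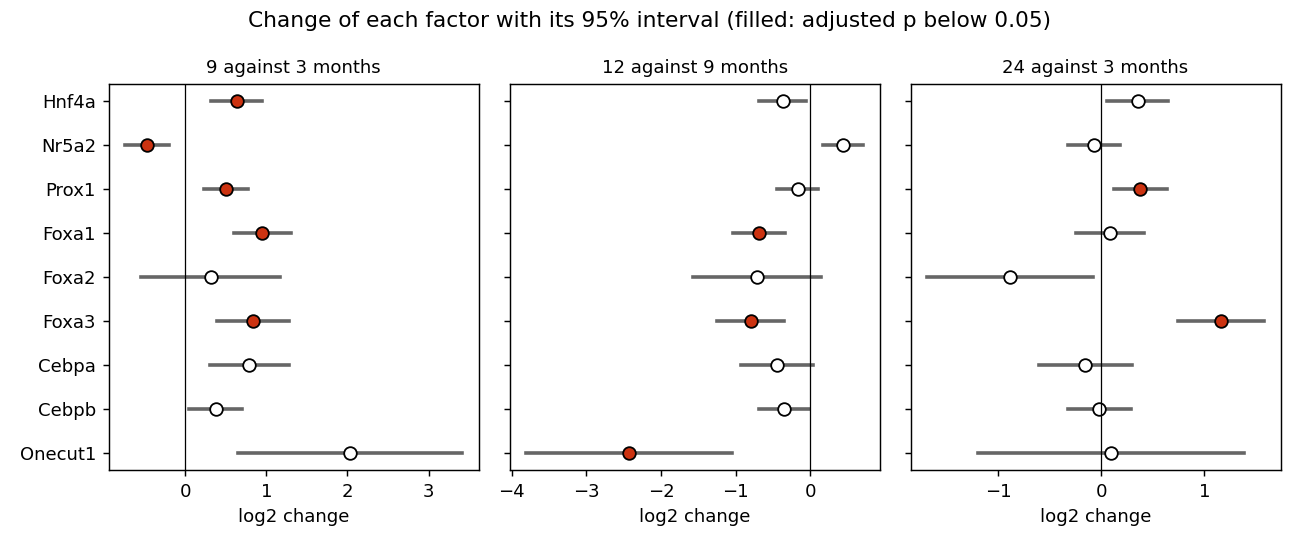
Difference in log2 signal of each factor (horizontal axis, its own span in each panel) between 9 and 3, 12 and 9, and 24 and 3 months, with 95% intervals from the limma fit. Filled points passed at an adjusted p below 0.05: 5 of 9 at 9 against 3 months, 3 of 9 at 12 against 9 months and 2 of 9 at 24 against 3 months.

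From 9 to 12 months Foxa1, Foxa3 and Onecut1 fell and 0 of the factors rose, 3 of 9 where 6.28% of all genes were called (3.1% lower), and the median change was -0.44 log2 beside -0.01 over all genes. The arrays of the 2 ages stood apart for 7 of 9 factors, against 25.8% of all genes. Hnf4a (-0.37, limma, adjusted p = 0.154), Cebpa (-0.44, 0.26) and Cebpb (-0.35, 0.19) were lower without passing.
With 9 and 12 months alone, with normexp or with no filter, 0 of 9 passed. Without 9-month array 1, 2 or 3 it was also 0, without 12-month array 2 or 4 Foxa1 alone passed, and without 12-month array 3 Foxa3 and Onecut1 did. Array 2 is the 1 array of its age scanned on the same day as the younger ages. Clock genes, whose level depends on the hour of the day, also moved in this step: 8 of 12 rose and 3 fell. Their part in the change of the factors was not tested.

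From 12 to 18 months 0 of 9 factors passed in limma, where 1.39% of all genes did, and 1 (Prox1, 0.36) had an unadjusted p below 0.05. From 18 to 24 months Foxa3 alone rose, 1 of 9 where 25.8% of all genes were called (10.8% higher). Between 24 and 3 months Foxa3 and Prox1 rose and 0 fell, 2 of 9 where 13.3% of all genes were called (4.24% higher). Arrays stood apart for 3 of 9 (Foxa3, Prox1 and Hnf4a), against 28.9% of all genes.
Over all 5 ages 8 of 9 factors passed the F test, against 37.4% of all genes. The linear trend with age passed for 0 of 9, against 5.8% of all genes. The slopes nearest to it were -0.46 log2 per 10 months for Foxa2 (limma, adjusted p = 0.126) and 0.39 for Foxa3 (adjusted p = 0.161), and these 2 alone had an unadjusted p below 0.05. The highest mean was at 9 months for 6 of the 9 factors, at 18 months for Nr5a2 and Prox1, and at 24 months for Foxa3.
Markers of other cells moved in both directions between 3 and 24 months. Of 8 stellate cell markers 0 rose and 3 fell, of 7 lymphocyte and of 7 endothelial markers 2 rose and 1 fell in each list, and of 7 cholangiocyte markers 1 rose. Of 7 Kupffer cell markers 4 rose and 1 fell, with a mean level of 1.07 to 1.20 at 3 months and 1.62 to 2.50 at 24 months. The clock list differed between 3 and 24 months as well, with 8 of its 12 members higher at the later age and 2 lower. From 18 to 24 months, 6 of 7 lymphocyte and 5 of 7 Kupffer cell markers were called higher and 0 lower. In that step 4 of 7 cholangiocyte markers were higher and 2 lower. The part of these cells or of the clock genes in the Foxa3 and Prox1 differences was not tested.

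At 24 months the arrays of slide 5 (1 and 2) and those of slides 6 and 7 (3 and 4) did not overlap for 3 of 9 factors, a share close to the 31.2% of all genes, so this is not particular to the factors. Arrays 1 and 2 were 1.75 log2 higher in Onecut1, 0.48 higher in Cebpb and 0.34 lower in Nr5a2 than arrays 3 and 4. Slide and sample cannot be told apart here.
These 3 factors were also compared over all 16 arrays. As a description across arrays that share slides and ages, Cebpb and Nr5a2 had a Pearson r of -0.885 (Spearman -0.874) and Cebpb and Onecut1 one of 0.848 (Spearman 0.806). Without the 2 arrays farthest from the median Cebpb level, r was -0.889 and 0.764. Without the 9-month arrays it was -0.833 and 0.679 over 13 arrays, and within ages -0.840 and 0.651. Onecut1 and Nr5a2 had an r of -0.820 (Spearman -0.688), which was -0.705 without the 2 farthest arrays, -0.577 without the 9-month arrays and -0.487 within ages. The 3 factors were picked for their split between slides at 24 months, and the 24-month arrays stayed in every version of r. No r was computed without them, so these values do not show a relation apart from that split. Of the 36 pairs of factors 4 had r above 0.7, 3 had r below -0.7 and the median was 0.282.

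**Figure D4:**
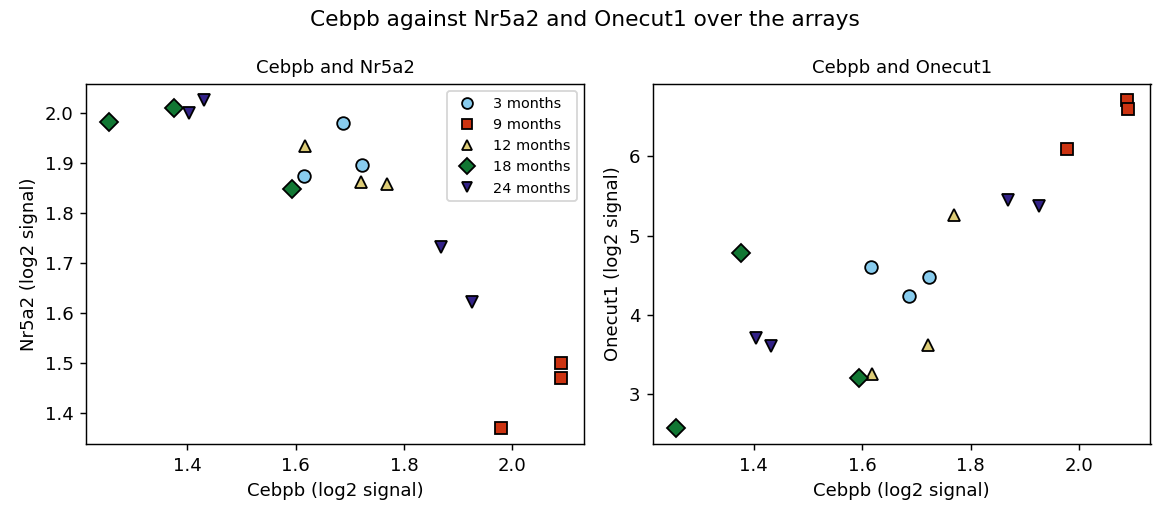
Nr5a2 (left) and Onecut1 (right) against Cebpb, in log2 signal, with 1 point per array and symbols for age. The 9-month arrays lie at high Cebpb, low Nr5a2 and high Onecut1, and 24-month arrays 1 and 2 lie on the same side as those of 9 months while arrays 3 and 4 lie on the other.

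Among 9498 other genes with a symbol that were measured on all 16 arrays, those most like each factor by Pearson r are given as a description. For Foxa2 the first was Birc2 (r = 0.934), for Cebpb Islr (0.929), for Onecut1 Ammecr1l (0.927) and Rcan1 (0.915), and for Cebpa Rcbtb2 (0.919). For Hnf4a it was Mak16 (0.871), for Prox1 Cxcl14 (0.867), for Foxa1 Dcaf5 (0.865), for Nr5a2 Zswim6 (0.865) and for Foxa3 Cpsf1 (0.861). Ammecr1l was among the 3 most alike of both Cebpb (0.855) and Onecut1. No p is given, since each was the highest of many.

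Other liver factors and known targets were examined from lists. Of 19 other liver transcription factors, 1 passed at 9 against 3 months: Nr1h4, the bile acid receptor FXR, rose by 0.81 ± 0.12, 1.76-fold (limma, adjusted p = 0.00216), and fell by 0.79 at 12 months (adjusted p = 0.00382). Foxa1 and Foxa3 were called in the same directions in both steps. Ppara, the fatty acid receptor, rose by 1.11 at 12 months (adjusted p = 0.0198) and was 0.85 higher at 24 than at 3 months (adjusted p = 0.027), and Cebpg fell by 0.68 from 18 to 24 months (adjusted p = 0.00232).
Of 12 partners, Ppargc1a, a coactivator of HNF4A in gluconeogenesis, fell by 1.56 at 9 months (adjusted p = 0.0116), where it was above background on 2 of 3 arrays, and rose by 1.29 at 12 months (adjusted p = 0.0312). Ddit3, which pairs with C/EBP proteins, was 0.58 lower at 9 months (adjusted p = 0.0925) and rose by 0.73 at 12 months (adjusted p = 0.0356). Tle3 (1.20, adjusted p = 0.0748) and Ppargc1b (0.64, adjusted p = 0.172) were higher at 9 months without passing.

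The target lists were divided in direction. Of 18 HNF4A targets 2 rose and 1 fell at 9 months: the lipoprotein gene Apoa4 by 0.90 (limma, adjusted p = 0.028), pyruvate kinase Pklr by 1.54 (adjusted p = 0.0314), and Cyp7a1, the rate-limiting enzyme of bile acid synthesis, by -2.25 (adjusted p = 0.0187). Of 10 FOXA targets 0 rose and 2 fell, Igfbp1 by 4.25 (adjusted p = 0.000144) and the gluconeogenic Pck1 by 0.77 (adjusted p = 0.0325). Pck1 and the acute-phase gene Orm1 (-1.79, adjusted p = 0.0233) were the 2 of 15 C/EBP targets that fell, with 0 higher.
Of 8 NR5A2 targets measured, 0 rose and 2 fell at 9 months: Cyp7a1, which is on the HNF4A list as well, and the sterol transporter Abcg5 by 2.37 (adjusted p = 0.0117). Both rose from 9 to 12 months, Cyp7a1 by 3.42 (adjusted p = 0.00298) and Abcg5 by 1.77 (adjusted p = 0.0471). Scarb1 (-0.22 log2) and Cyp8b1 (0.36 log2) did not pass at 9 months. The part of the factors in the changes of these or the other targets was not tested.
The median changes at 9 months were 0.20 for the HNF4A, 0.32 for the FOXA, 0.16 for the C/EBP and -0.18 for the NR5A2 targets, beside 0.04 over all genes. Igfbp1, Pck1 and Gys2, a glycogen synthase on the C/EBP list, rose from 9 to 12 months by 3.15, 1.17 and 1.21 (adjusted p = 0.00143, 0.00492 and 0.00633), and Gys2 stayed 1.11 above 3 months at 24 months (adjusted p = 0.0019). The C-reactive protein gene Crp fell by 0.87 at 12 months (adjusted p = 0.0478), and the glucose transporter Slc2a2 was 0.87 higher at 24 than at 3 months (adjusted p = 0.0425).

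Promoter sequence of 6 of the 9 factors was at hand from RefSeq (genome GRCr8, 7 starts, 2 of them for Hnf4a), as 250 bases before the start. The motifs searched on both strands included TGTTTAC (forkhead), TTGCNNAA (C/EBP), CAAAGTCCA (HNF4), ATTGAT (ONECUT), AAGGTCA (NR5A) and TGACGTCA (the cAMP response element). Of these, only the ONECUT letters occurred, in 2 of the 7 sequences, and they occur in 7.1% of 33469 rat promoter windows of this length. The others named here occur in 0.338% (HNF4) to 9.22% (C/EBP) of these windows. The letters TATAAA, searched after the sequences had been seen, occurred in 4 of the 7 and in 12.9% of all windows. They lie 35 and 33 bases before the start in Cebpa and Cebpb, 82 in Foxa3 and 205 in Foxa2, where an overlapping match also lies on the other strand.
The 3 windows are printed, the 2 with ONECUT letters, because Onecut1 had the widest range over the ages, and that of Foxa3, because it rose at 2 ages. Capitals mark the ONECUT and TATAAA matches. A match describes these letters and is not evidence of binding. The windows are chr3:172605970-172606219 (plus strand, Hnf4a, the upstream start), chr3:155927509-155927758 (minus strand, Foxa2) and chr1:87799486-87799735 (minus strand, Foxa3).
Hnf4a: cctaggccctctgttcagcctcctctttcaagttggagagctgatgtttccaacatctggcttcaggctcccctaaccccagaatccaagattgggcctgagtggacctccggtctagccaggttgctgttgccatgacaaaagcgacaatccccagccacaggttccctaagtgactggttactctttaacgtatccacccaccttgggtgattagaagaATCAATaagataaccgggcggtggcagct
Foxa2: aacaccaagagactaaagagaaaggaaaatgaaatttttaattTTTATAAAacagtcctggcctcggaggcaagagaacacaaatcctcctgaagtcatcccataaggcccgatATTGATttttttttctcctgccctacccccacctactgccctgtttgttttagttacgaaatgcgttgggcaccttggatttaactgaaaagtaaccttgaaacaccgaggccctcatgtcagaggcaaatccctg
Foxa3: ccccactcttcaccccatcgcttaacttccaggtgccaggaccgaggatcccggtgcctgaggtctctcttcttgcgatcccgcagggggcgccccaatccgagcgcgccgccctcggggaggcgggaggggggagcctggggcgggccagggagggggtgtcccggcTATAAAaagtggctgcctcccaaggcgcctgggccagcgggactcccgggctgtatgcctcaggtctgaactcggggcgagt
The GC content of the windows was 69.6% in Foxa3, 67.2% in Cebpa and 80% in Cebpb, against 42.8% in Foxa2, 44.4% in Nr5a2 and 52.4% and 54.8% in Hnf4a, with a median of 51.2% over all windows. Foxa3, Cebpa and Cebpb were thus the GC-rich promoters of the 6 factors.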

How the data were processed

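Liver RNA of 16 samples was measured on Agilent one-colour rat arrays. Per the file headers, the authors extracted the scans with Agilent's Feature Extraction software, version 10.7.3.1, and deposited intensity values for each spot, unscaled between arrays. The deposited files also hold other columns, the flags for background, saturation and outliers. The deposited table of the whole series holds log2 values whose normalization is not stated, and it was used as an alternative. The labels name a labelling kit for microRNA, which was not resolved. Here each array's 75th percentile was subtracted from its processed signals on the log2 scale. Spots flagged as outliers were dropped (1860), spots of a probe were averaged, and 25682 of 41012 probes were kept, those well above background throughout 1 age or more. The kept probe with the highest mean stood for a gene. A mean per age was fitted across 21447 genes with limma 3.58.1 (R 4.3.3, data.table version 1.17.8), two-sided, with Benjamini-Hochberg adjustment at 0.05; the procedure was tested on simulated data. Spread is SD between arrays or the fit's SE. Figures used matplotlib 3.10.9 in Python 3.11.15.

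The members and all gene lists were chosen with earlier results of these data known. Named by rule were all members, up to 4 genes of each other list of factors, partners and targets with the smallest p for any age difference, and the 3 genes most like each member. Other genes were named after their values were seen. Samples with the same replicate number did not deviate together (correlations from -0.300 to 0.071), so the number was not taken as a pairing. Replicate arrays of 3 months differed beyond the spot noise in 65.3% of 150 probes printed repeatedly. Spot noise does not include the spread between hybridisations of the same RNA. This comparison therefore cannot tell copies from separate samples, and treating the arrays as replicates is an assumption. Alternatives covered normalization, filters, the probe rule, slide, scan day, the arrays compared and arrays left out. Some results on other liver factors are not reported here.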

Additional observations from a re-analysis of the deposited data

How the results depend on the processing

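The processing changed how many of the 9 factors passed more than it changed their direction, and no called change turned its sign under any alternative run. The share of all genes called in each alternative is not given here. Shifts in the counts below therefore cannot be read as particular to the factors. For 24 against 3 months (2 passed), 1 passed with normexp, with no filter, with each probe as its own row, with the compared ages alone, and with 12-month array 2 and 24-month arrays 3 and 4 left out, 0 with slide as a random block, and 1 to 2 without single arrays. For 9 against 3 months (5 passed), 1 passed with normexp and with no filter, 8 with scan day as a fixed block and with those 3 arrays left out, 9 with the compared ages alone and within scan day 1 (the same arrays), and 1 without each single array. For 12 against 9 months (3 passed), 0 passed with normexp, no filter or the compared ages alone, 5 with slide as a random block and with the 3 arrays left out, 6 with slide as a fixed block and within scan day 1, and 0 to 2 without single arrays. The counts of 6 rest on 12-month array 2 alone for that age, assumed to vary like the other arrays, and it is the array with the lowest correlation with its own age (0.962). For 24 against 18 months (1 passed), 0 passed with slide as a random block, 4 with the 3 arrays left out, and 1 to 2 without single arrays. For any age difference (8 passed), 2 passed with normexp, 5 with no filter, and 3 to 9 without single arrays. For 18 against 12 months, 0 passed throughout, and for the linear trend 1 (Foxa3) with scan session as a fixed block and 0 otherwise. With the replicate number as a block, which is not a pairing here, the counts were 1 of 9 for 24 against 3 months, 2 for 9 against 3, 0 for 12 against 9, 0 for 18 against 12, 1 for 24 against 18, 3 for any age difference and 0 for the trend. Foxa1 at 9 against 3 months passed under all 16 alternatives and all 6 fits without an array, and Foxa3 at 24 against 3 months under 12 of 13 and all 7. The cause of these shifts was not tested. With normexp the median of all genes moved to 0.12 for 24 against 3, -0.12 for 18 against 12 and 0.13 for 24 against 18 months, and factor changes there are relative to it. Within scan day and session fits were added after the data were seen. The number of arrays limits precision. Prox1, at 31.9 to 86.8 intensity units, was above background on all arrays.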
